A study of Mus musculus with 4 samples.

Results

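The genes described here are 9 genes of coagulation, fibrinolysis and the vessel wall that were measured in mouse heart: Thbs1, F3, Plat, Plau, Plaur, F13a1, Vwf, Thbd and Procr. They were chosen by symbol, each symbol stood for a single row of the data, and they are 9 of 23282 genes. Heart RNA was measured with 1 library in each of 4 groups of male CDF1 mice, whose labels give the age as postnatal day 28 and whose methods place killing at the end of the experiment that followed. E-&T- mice neither ran nor carried a tumor, E+&T- mice ran on a treadmill at high intensity on alternate days, E-&T+ mice received CT26 cells, a murine colorectal carcinoma line, through the tail vein and did not run, and E+&T+ mice received the cells and also ran. The injected cells spread through the body instead of growing at a single site, which limits the groups as a model of a colon tumor. Values are given below in the order E-&T-, E+&T-, E-&T+ and E+&T+. Whether a heart library holds RNA of 1 mouse or of several is not stated in the sources used here, and no group has a second library, so no difference below has a replicate check and no p-value is given.

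Clotting in a vessel starts when tissue factor, the protein of F3, meets factor VII of the blood and a cascade of proteases ends in thrombin, which makes fibrin and activates platelets. Factor XIII, whose catalytic A chain is encoded by F13a1, then links fibrin strands to each other, and von Willebrand factor ties platelets to the injured wall. Endothelial cells hold the cascade back through thrombomodulin (Thbd), which turns thrombin towards protein C, and through the endothelial protein C receptor (Procr), which presents protein C to that complex. Fibrin is removed by plasmin, which is made from plasminogen by the tissue-type activator (Plat) or by the urokinase-type activator (Plau) at its receptor (Plaur). Thrombospondin 1 (Thbs1) is a matrix protein that platelets store and release and that many stromal cells make when stimulated. Several of these genes are also known as early transcriptional targets of injury, growth factors and mechanical load, and AP-1, the dimer of Fos and Jun proteins, is a well known factor at such genes.

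The sequences before the start sites of Plaur and Procr are shown because both genes were low in E-&T- and higher in the other libraries, and that of F3 is shown because it holds the same motif while F3 was not higher in any of them. They come from RefSeq on GRCm38.p6, plus strand, 5′ to 3′, and end at the base before the RefSeq start site, except that Procr ends before the first base of the gene in GENCODE. Capitals mark matches to any of 7 motifs, searched on both strands. The motifs of induced genes were AP-1 spelled TGANTCA, CRE spelled TGACGTCA and EGR spelled GCGNGGGCG. The motifs of promoters at large were the TATA box spelled TATAAA, the E-box spelled CACGTG, ETS spelled CCGGAAGT and the GC box spelled GGGCGG.
Plaur, chr7:24462233-24462482: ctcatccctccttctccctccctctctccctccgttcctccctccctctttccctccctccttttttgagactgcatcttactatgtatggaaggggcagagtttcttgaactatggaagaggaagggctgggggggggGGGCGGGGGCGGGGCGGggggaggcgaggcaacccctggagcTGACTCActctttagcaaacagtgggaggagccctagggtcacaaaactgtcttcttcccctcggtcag
Procr, chr2:155750967-155751116: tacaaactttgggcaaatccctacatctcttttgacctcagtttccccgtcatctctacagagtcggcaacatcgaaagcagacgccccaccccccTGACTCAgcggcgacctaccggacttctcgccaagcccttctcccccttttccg
F3, chr3:121723287-121723536: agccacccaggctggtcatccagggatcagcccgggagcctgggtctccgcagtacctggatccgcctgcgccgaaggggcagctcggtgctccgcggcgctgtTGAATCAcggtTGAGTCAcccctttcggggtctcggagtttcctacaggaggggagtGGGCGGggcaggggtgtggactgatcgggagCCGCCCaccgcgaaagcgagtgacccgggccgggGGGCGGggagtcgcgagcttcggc
Plaur has an AP-1 match whose first base is at -69 from the start site (TGACTCA), and an EGR match at -109 that overlaps GC boxes at -111, -105 and -100. Procr has an AP-1 match at -154 (TGACTCA) and no other match in the 250 bases searched. This position is counted from the RefSeq start site, which lies beyond the bases shown. F3 has AP-1 matches at -146 (TGAATCA) and -135 (TGAGTCA) and GC boxes at -89, -58 and -24. Of 32851 promoter windows of 250 bases, 6.75% held an AP-1 match, 4.70% an EGR match and 32.7% a GC box, while CRE was found in 1.55%, TATA in 12.4%, E-box in 6.02% and ETS in 2.88%. Windows were found for 4 of the 9 genes, and both windows of F13a1 held none of the 7 motifs. A match describes these letters and does not show that a factor binds there.

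Levels are given as reads, recovered as whole numbers from the deposited values, and as normalized reads, which are the read counts after the normalization by the authors. Differences are differences of the deposited log2(normalized read count + 1) values, so that a log2 difference of 1 is close to 2-fold, and low counts make them too small because of the added 1. The 2-fold and 4-read thresholds of the study were used, and that 1 library of a pair suffices for the reads was set here. A gene was called higher or lower in a pair of libraries when it had at least 4 normalized reads in at least 1 of the 2 libraries and differed at least 2-fold. The range in brackets after a log2 difference is the 95% Clopper-Pearson interval of the read ratio, which covers counting error only and no difference between mice. The libraries held 6595419, 8477183, 9532906 and 11545862 reads, and genes that each took over 1% of a library held 20.8%, 18.7%, 19.4% and 41.0% of them. The high share in E+&T+ came with erythroid genes, whose 7 listed markers took 28.5% of the reads there against 6.22% to 6.97% in the other libraries. The summed level of 7 cardiomyocyte markers was between 318491 and 373621 normalized reads, so the defining genes of heart muscle were present in all 4. In bulk tissue, fewer cells of a type and less RNA per cell cannot be told apart.

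In the plot of levels by library, 4 of the 9 genes, Thbs1, Plaur, Procr and F13a1, were lowest in E-&T-. The first 3 of these had 9 to 17 reads there and 33 to 134 in every other library. F13a1 was highest in E-&T+, Vwf was highest in E+&T+, and Thbd was lower in both tumor libraries than in both tumor-free ones. Plau was highest in E-&T+ and lowest in E+&T+, whereas Plat had the smallest range, with its highest level 1.70 times its lowest.

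**Figure D1:**
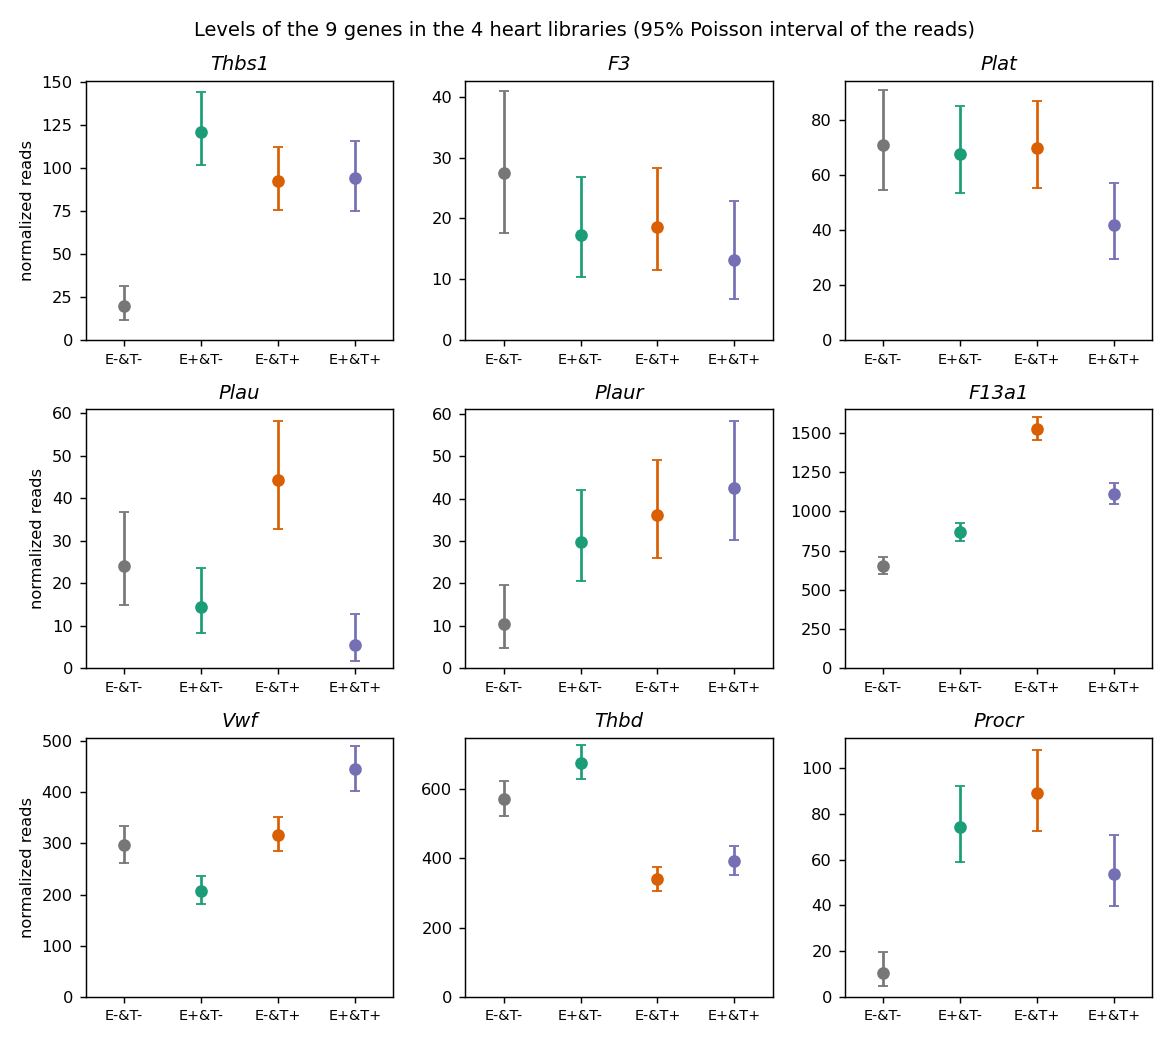
Normalized reads of the 9 genes (vertical axis, linear, from 0) in the 4 heart libraries (horizontal axis); points are single libraries and bars are 95% Poisson intervals of the reads. Thbs1, Plaur and Procr sit lowest in E-&T- at 19.8, 10.5 and 10.6 normalized reads, and the interval there does not reach that of any other library.

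With exercise in tumor-free hearts, E+&T- against E-&T-, 3 of the 9 genes were called higher (Thbs1, Plaur and Procr) and 0 lower, while 5.88% of the 13937 genes that reached 4 normalized reads in this pair were called higher and 6.40% lower. The median log2 difference of the 9 genes was 0.24, beside 0.007 over the 11638 genes that averaged 16 or more normalized reads. With exercise in tumor-bearing hearts, E+&T+ against E-&T+, 0 were called higher and 1 lower (Plau), beside 9.39% and 10.0% of 14363 genes, and the median was -0.46 beside -0.006. With tumor in hearts of mice that did not run, E-&T+ against E-&T-, 4 were called higher (Thbs1, Plaur, F13a1 and Procr) and 0 lower, beside 14.6% and 13.1% of 14317 genes, and the median was 0.86 beside -0.024. With tumor in hearts of mice that ran, E+&T+ against E+&T-, 1 was called higher (Vwf) and 1 lower (Plau), beside 12% and 11.1% of 14289 genes, and the median was -0.36 beside -0.025. The comparisons of exercise alone and of tumor alone share the E-&T- library, so a low value there enters both.

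**Figure D2:**
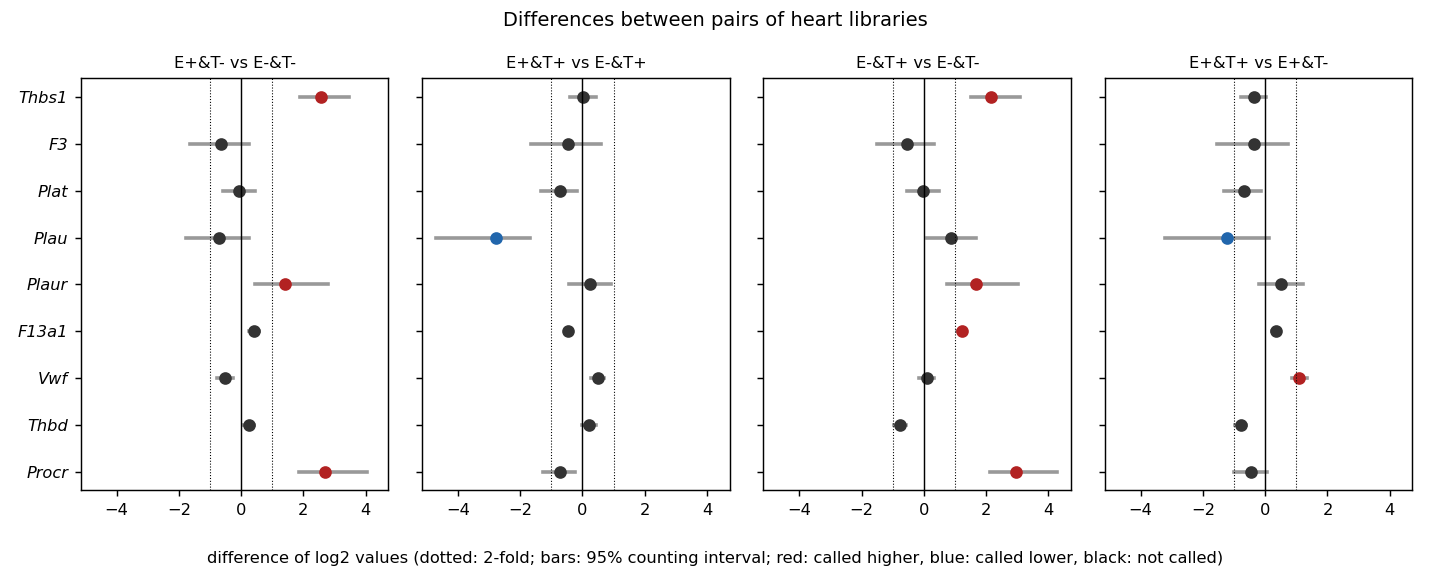
Difference of log2 values (horizontal axis) of each gene in the 4 pairs of libraries, with the 95% counting interval as a bar and dotted lines at 2-fold; red points were called higher, blue lower and black neither. Thbs1, Plaur and Procr lie to the right in both pairs that have E-&T- as the second library, and within 2-fold in the other 2 pairs.

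Of the initiators of clotting, F3 (chromosome 3, 121723537 to 121735048, plus strand) had 24, 19, 21 and 12 reads, or 27.4, 17.2, 18.5 and 13.2 normalized reads. The level was highest in E-&T- and lowest in E+&T+, and every pair of neighbours in that order lay within counting error. F3 differed by -0.64 (-1.63 to 0.25) with exercise alone, by -0.54 (-1.49 to 0.34) with tumor alone and by -1.0 (-2.20 to -0.012) between E+&T+ and E-&T-. The intervals with exercise alone and with tumor alone include no change, and differences within them were not detectable at this depth. That between E+&T+ and E-&T- narrowly excludes no change. Of 124 listed genes that averaged 16 or more normalized reads, the nearest profiles over the 4 libraries belonged to the endothelial receptors Tie1 and Flt1, at Euclidean distances of 0.26 and 0.37 on the centred log2 scale.

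Downstream of thrombin, F13a1 (chromosome 13, 36867178 to 37050244, minus strand) had 571, 959, 1729 and 1017 reads, or 655, 867, 1525 and 1112 normalized reads. The order was E-&T+, E+&T+, E+&T- and E-&T-, and each step in it exceeded counting error. F13a1 was called higher with tumor alone, by 1.22 (1.08 to 1.36), and was 0.36 (0.23 to 0.49) higher with tumor in mice that ran. Exercise went with a level 0.41 (0.26 to 0.56) higher without tumor and one that fell by 0.46 (-0.57 to -0.34) with tumor, neither past 2-fold. When reads were scaled to library totals (CPM), in which the erythroid genes count, the difference between E+&T+ and E+&T- turned to -0.36 and that between E+&T+ and E-&T+ became -1.03, while the median of all genes moved to -0.68 and -0.54 in these pairs.

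Factor XIII A is known to be made by tissue macrophages and by the platelet lineage, and the summed macrophage markers took the same order as F13a1. The sums of the platelet, fibroblast, immediate early and hepatocyte lists took that order too, but each was led by 1 gene. In E-&T+, Pf4 held 2801 of 3554 platelet normalized reads and Dcn 40453 of 51031 fibroblast ones. Ctgf held 10831 of 16469 immediate early ones there, and Ahsg 1047 of 1127 hepatocyte ones. Whether the other genes of a list share the order cannot be read from its sum. The platelet markers summed to 950, 1751, 3554 and 2771 normalized reads. The 12 macrophage markers summed to 3972, 5076, 9590 and 5995 normalized reads, none of them was at 0 reads in any library, and 7 of the 12 were called higher with tumor alone. Among them the complement gene C1qa had 713, 1013, 1966 and 1250 normalized reads and the vessel-associated macrophage marker Lyve1 had 376, 636, 1671 and 1530, whereas Csf1r, the receptor for colony stimulating factor, had 1003, 987, 928 and 616 and did not follow. Of the 12, the C1q genes C1qa, C1qb and C1qc and Lyve1 had the order of F13a1, and the other 8 did not. Timd4, a marker of resident macrophages, was called lower with tumor alone, and also with exercise alone, by -1.04 (-1.99 to -0.23). The profiles nearest to F13a1 were those of the thrombin receptor F2r (distance 0.16) and of C1qa (0.18). The part of macrophage number, or of any other list with this order, in the level of F13a1 was not tested.

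Vwf (chromosome 6, 125546774 to 125686679, plus strand) had 259, 230, 360 and 407 reads, or 297, 208, 317 and 445 normalized reads. E+&T+ was highest and E+&T- lowest, and E-&T+ and E-&T- lay within counting error of each other. Vwf was called higher between E+&T+ and E+&T-, by 1.09 (0.86 to 1.34). It was 0.51 lower with exercise in the absence of tumor (-0.78 to -0.25) and 0.49 (0.28 to 0.70) higher with exercise in its presence. The call was not kept when reads were scaled to library totals, which gave 0.37, or to the reads of genes under 1% of every library, which gave 0.92, and under total scaling the difference with exercise in tumor-bearing hearts was -0.10, in pairs where the median of all genes was -0.68 and -0.54.

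Von Willebrand factor is made by endothelial cells and megakaryocytes. The 11 endothelial markers summed to 10758, 8752, 9162 and 11013 normalized reads, none was at 0 reads, and 2 of the 11 were called higher between E+&T+ and E+&T-. The adhesion molecule Pecam1 had 1678, 1773, 2455 and 3310 normalized reads and Egfl7, a secreted endothelial factor, had 1312, 1036, 2248 and 2404, while Kdr, the main receptor for vascular endothelial growth factor, had 2631, 1707, 709 and 967. The 5 lung epithelial markers, of a tissue whose vessels are rich in von Willebrand factor, also took their highest level in E+&T+ and their lowest in E+&T-, with sums of 593, 148, 522 and 1754 normalized reads; the secretoglobin Scgb1a1 led them with 467, 97.5, 363 and 1228, and Sftpd was at 0 reads in E+&T-. The endocardial and venous markers summed to 1112, 881, 1249 and 1424 normalized reads, which is the order of Vwf. The neutrophil and monocyte markers took that order too, with sums of 289, 218, 3369 and 6356. Between E+&T+ and E+&T-, 3 of the 5 endocardial and venous markers that reached 4 normalized reads were called higher and 0 lower. From E+&T- to E+&T+, Npr3 rose from 279 to 722 normalized reads, whereas Nfatc1 differed by -0.81 (-1.17 to -0.47). The part of any of these lists in the level of Vwf was not tested. The nearest profiles were those of Ly6c2, a monocyte surface protein, and Thbs4, a thrombospondin of muscle and tendon, both at 0.27.

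Of the receptors that serve protein C, Thbd (chromosome 2, 148404466 to 148408188, minus strand) had 499, 747, 385 and 358 reads, or 572, 676, 339 and 392 normalized reads. Both tumor libraries lay below both tumor-free ones. Thbd was 0.75 lower with tumor alone (-0.95 to -0.56) and 0.79 lower with tumor in mice that ran (-0.97 to -0.60), beyond counting error but short of 2-fold in both. Exercise went with 0.24 (0.075 to 0.41) without tumor and 0.21 (-0.0063 to 0.42) with tumor, and the latter turned to -0.37 when reads were scaled to library totals. With that scaling the difference between E+&T+ and E+&T- was -1.48 and past 2-fold. The flow-responsive endothelial factor Klf2, a known activator of Thbd, had 2103, 2477, 2448 and 1158 normalized reads, so that it was lowest in 1 of the tumor libraries and not in the other. The profiles nearest to Thbd were those of the endocardial factor Nfatc1 (0.11) and the cardiac actin Actc1 (0.24).

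Procr (chromosome 2, 155751117 to 155755471, plus strand) had 9, 82, 101 and 49 reads, or 10.6, 74.3, 89.3 and 53.6 normalized reads. Only the step between E+&T+ and E-&T-, at the low end of the order, exceeded counting error between neighbours. Procr was called higher with exercise alone, by 2.70 (1.85 to 4.03), and with tumor alone, by 2.96 (2.13 to 4.28), each against the same E-&T- library. Between the tumor-bearing libraries it was 0.73 lower with exercise (-1.26 to -0.23), and between the running mice it was 0.46 lower with tumor (-1.01 to 0.059). Procr and Thbd, whose products act on the same substrate, therefore did not share a pattern, since Thbd in E-&T- was above both tumor libraries. The nearest profiles to Procr were Tagln of smooth muscle and Clec1b of platelets, at 0.65 and 0.74, which is farther than for any of the other genes except Plau.

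The 2 plasminogen activators differed from each other. Plat (chromosome 8, 22757727 to 22782844, plus strand) had 62, 75, 79 and 38 reads, or 71.0, 67.8, 69.7 and 41.7 normalized reads. The first 3 libraries lay within counting error of each other, and E+&T+ was lower, by 0.73 against E-&T+ (-1.34 to -0.17) and by 0.69 against E+&T- (-1.31 to -0.13). Neither difference reached 2-fold, but with reads scaled to library totals they were -1.11 and -1.20. The macrophage genes Csf1r and Folr2 had the profiles nearest to Plat, at 0.11 and 0.17.

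Plau (chromosome 14, 20836660 to 20843385, plus strand) had 21, 16, 50 and 5 reads, or 24.1, 14.4, 44.4 and 5.61 normalized reads. It was highest in E-&T+ and lowest in E+&T+, and the 2 tumor-bearing libraries were the farthest apart. Plau was called lower with exercise in tumor-bearing hearts, by -2.78 (-4.70 to -1.69). Between E+&T+ and E+&T- it was also called lower, by -1.22, but the interval of -3.21 to 0.11 includes no change, and neither a minimum of 16 normalized reads nor a pseudocount of 4 kept that call. With tumor alone it was 0.86 (0.11 to 1.68) higher, and with exercise alone -0.70 (-1.77 to 0.27). Its nearest profile, at a distance of 0.97, was that of the collagen gene Col1a2, which had 2182, 3394, 5942 and 1048 normalized reads, followed by Plgrkt, a plasminogen receptor, at 1.21. The 7 fibroblast markers summed to 24415, 28448, 51031 and 31812 normalized reads, none at 0 reads, and 4 of the 7 were called lower with exercise in tumor-bearing hearts; their part in the level of Plau was not tested.

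The urokinase receptor Plaur (chromosome 7, 24462484 to 24475968, plus strand) had 9, 33, 41 and 39 reads, or 10.5, 29.8, 36.2 and 42.5 normalized reads. The 3 libraries other than E-&T- lay within counting error of their neighbours in the order. Plaur was called higher with exercise alone, by 1.42 (0.44 to 2.78), and with tumor alone, by 1.69 (0.75 to 3.04). In E+&T+ it was 1.92 (0.98 to 3.28) above E-&T-, while its ligand Plau was at its lowest there, -1.92 (-3.90 to -0.69) from E-&T-. Plaur is common on neutrophils and monocytes, whose 8 markers summed to 289, 218, 3369 and 6356 normalized reads, with Mmp8 at 0 reads in both tumor-free libraries. Their part in the level of Plaur was not tested.

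Thbs1 (chromosome 2, 118111876 to 118127133, plus strand) had 17, 134, 105 and 86 reads, or 19.8, 121, 92.6 and 94.0 normalized reads. E-&T- stood apart and the other 3 libraries lay within counting error of their neighbours in the order. Thbs1 was called higher with exercise alone, by 2.56 (1.90 to 3.46), and with tumor alone, by 2.17 (1.50 to 3.08). With exercise in tumor-bearing hearts the difference was 0.021 (-0.41 to 0.45), and with tumor in running mice it was -0.36 (-0.77 to 0.035). The profile nearest to Thbs1 was that of Fos, a subunit of AP-1, at a distance of 0.38, followed by Tagln at 0.41.

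Several marker lists were, like Thbs1, Plaur and Procr, lowest in E-&T- when summed. The 13 platelet markers summed to 950, 1751, 3554 and 2771 normalized reads and were thus also lowest in E-&T-, and 5 and 6 of the 10 that reached 4 normalized reads were called higher with exercise alone and with tumor alone. The platelet chemokine Pf4 had 640, 1099, 2801 and 1754 normalized reads, Ppbp had 103, 249, 136 and 308, and Gp1bb, a subunit of the platelet receptor for von Willebrand factor, had 51.9, 160, 176 and 199. Gp6 had reads in 1 library only and Tubb1 had at most 1 read in any library. Gp1bb (0.15) and Treml1 (0.25) had the profiles nearest to Plaur. The 13 immediate early genes summed to 5216, 7763, 16469 and 10145 normalized reads, none of them at 0 reads, and 6 and 9 of them were called higher in the same pairs. Among these, the connective tissue growth factor Ctgf had 1951, 3136, 10831 and 2448 normalized reads, while Jun had 1024, 1244, 604 and 527 and did not follow. The 7 mural markers, of smooth muscle and pericytes, summed to 4438, 7554, 5865 and 5890 normalized reads, none at 0 reads, and 3 and 2 of the 7 were called higher in these pairs. Tagln, whose profile was the nearest to Procr, had 150, 639, 691 and 659 normalized reads, the smooth muscle actin Acta2 had 1564, 4164, 2964 and 2731, and the smooth muscle myosin Myh11 had 343, 901, 760 and 639. Rgs5, a mural marker that was highest in E-&T-, had 1504, 1135, 816 and 1235. The median log2 differences of the mural markers were -0.092 with exercise alone and -0.14 with tumor alone, with 4 of the 7 below 0 in each pair. The macrophage and fibroblast sums given above were lowest in E-&T- as well. The fibroblast sum was mostly Dcn, with 20423, 22489, 40453 and 29409 normalized reads. Of the other fibroblast markers, Pdgfra, Col1a1, Col1a2, Lum and Postn were lowest in E+&T+, and Tcf21 in E+&T-. The part of any of these lists in the levels of Thbs1, Plaur and Procr was not tested.

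**Figure D3:**
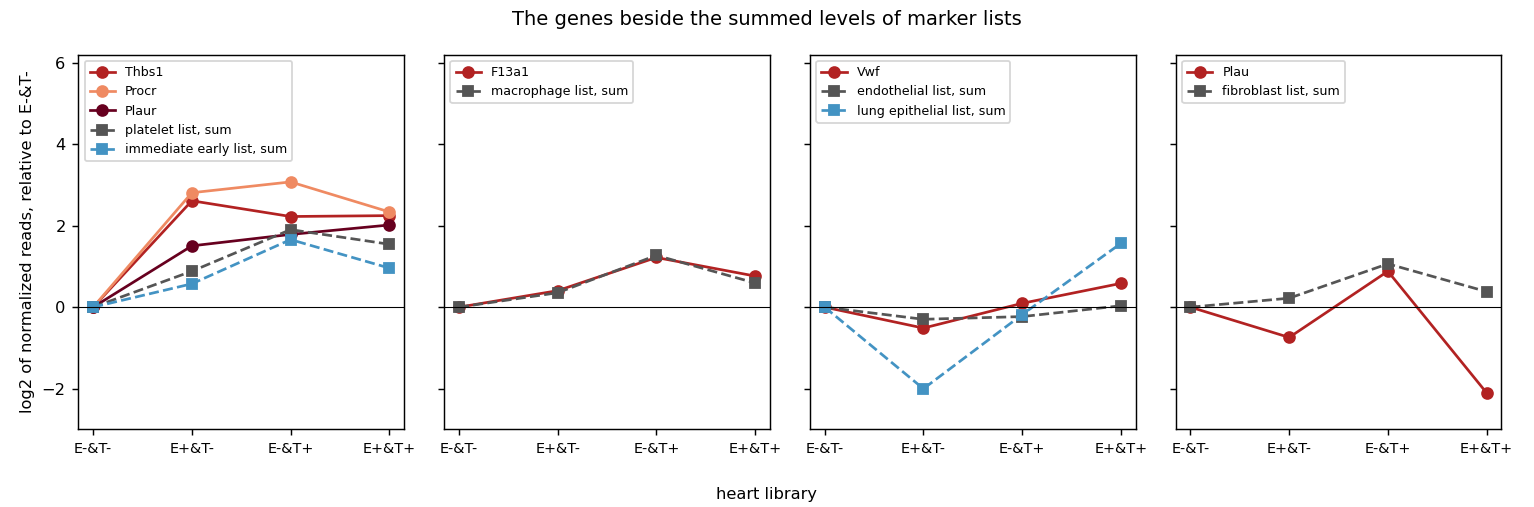
Log2 of normalized reads relative to E-&T- (vertical axis) in the 4 libraries, for genes (solid lines, circles) and for summed marker lists (dashed lines, squares); lines join libraries for reading only. F13a1 runs beside the macrophage list (655, 867, 1525 and 1112 against 3972, 5076, 9590 and 5995 normalized reads), and the platelet and immediate early lists are lowest in E-&T-, as are F13a1, Thbs1, Plaur and Procr. The platelet and immediate early sums also have the order of F13a1.

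The exercise effects with and without tumor come from pairs that share no library. The difference between them, with its counting standard error, was -3.43 (0.57) for Procr, -2.54 (0.43) for Thbs1, -2.08 (0.83) for Plau, -1.19 (0.63) for Plaur and -0.86 (0.10) for F13a1 on the log2 scale. Vwf had a positive value, 1.0 (0.17). Plat had -0.66 (0.38), F3 0.18 (0.68) and Thbd -0.035 (0.13). Procr and F13a1 were higher with exercise in tumor-free hearts and lower in tumor-bearing ones, and Vwf did the opposite. These errors hold no difference between mice, and the difference between the effects was not tested.

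**Figure D4:**
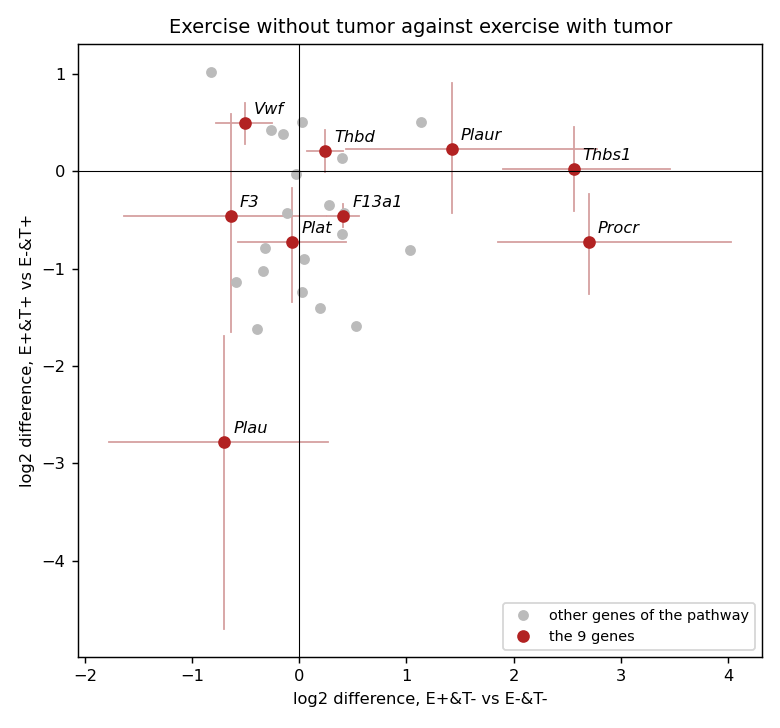
Log2 difference with exercise in tumor-free hearts (horizontal axis) against that in tumor-bearing hearts (vertical axis); red points are the 9 genes with 95% counting intervals, and grey points are the other genes of the pathway that averaged 16 or more normalized reads. Procr (2.70 and -0.73), Thbs1 (2.56 and 0.021) and Plaur (1.42 and 0.23) lie far right near the horizontal line, Plau (-0.70 and -2.78) lies low, and Vwf (-0.51 and 0.49) lies in the upper left.

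A list of 45 other genes of coagulation and fibrinolysis was read beside them. Of these, 41 had reads in the heart, and F2, F11, F12 and F13b, which the liver makes for the blood, had 0 reads in all 4 libraries, which allows up to 3 reads in each. With exercise in tumor-free hearts 3 of 24 genes past the minimum were called higher, F10 and Cpb2 among them, and 0 lower, beside 5.88% and 6.40% of all genes. With exercise in tumor-bearing hearts 2 of 28 were called higher (F8 and Adamts13) and 9 lower, beside 9.39% and 10.0%. With tumor alone 12 of 28 were called higher and 4 lower (F8, Ggcx, Tfpi2 and Serpind1), beside 14.6% and 13.1%, and with tumor in running mice 7 of 29 were called higher and 2 lower (Serpind1 and Cpb2), beside 12% and 11.1%. Of these, F10, Cpb2, Adamts13, Tfpi2 and Serpind1 were named after their values were seen, and each rests on at most 2 reads in 1 library of the pair. Other calls rest on as few. With tumor alone, F10, Fgb, Fgg, Klkb1, Kng1 and F2rl3 had at most 2 reads in E-&T-. With tumor in running mice, Fgb, Fgg, Kng1, Plg and Adamts13 had at most 2 in E+&T-. The intervals include no change for Cpb2 with exercise alone, and for F8, Adamts13, Klkb1, Kng1 and F2rl3 with exercise in tumor-bearing hearts. They also do so for Klkb1, Tfpi2 and Serpind1 with tumor alone, and for Plg, Adamts13, Serpind1 and Cpb2 with tumor in running mice. Fgg, Klkb1, Kng1, F2rl3 and Plg were also named after their values were seen. The medians over the 20 genes that averaged 16 or more normalized reads were 0.026, -0.54, 0.54 and 0.059 in this order.

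Of the genes of fibrinolysis, Serpine2, protease nexin 1, had 475, 689, 2501 and 765 reads and was called higher with tumor alone, by 2.02 (1.88 to 2.16), and lower with exercise in tumor-bearing hearts, by -1.40 (-1.52 to -1.28). Plgrkt, with 103, 133, 177 and 60 reads, was called lower with exercise in tumor-bearing hearts by -1.24 (-1.70 to -0.82).

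Among the clotting factors, F5, the cofactor of factor X, had 38, 37, 243 and 63 reads, with 2.27 (1.80 to 2.83) for tumor alone and -1.62 (-2.06 to -1.23) for exercise in tumor-bearing hearts, both called. F8, the cofactor of factor IX, had 23, 16, 10 and 17 reads and was called lower with tumor alone by -1.49 (-2.81 to -0.45). The call of F8 as higher with exercise in tumor-bearing hearts, 1.02, has an interval of -0.13 to 2.36. Fgb, the fibrinogen beta chain of the liver, had 0, 2, 66 and 76 reads and was higher in E-&T+ than in E-&T- by at least 4.08 on the log2 scale, counted against 3 reads in E-&T-. The 5 hepatocyte markers summed to 121, 156, 1127 and 724 normalized reads in the same libraries, and their part in the level of Fgb was not tested.

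F2r, the main thrombin receptor, had 531, 887, 1803 and 924 reads and was called higher with tumor alone by 1.38 (1.25 to 1.53). Tfpi, which inhibits the tissue factor complex, had 261, 277, 328 and 355 reads, and Pros1, the protein S cofactor of protein C, had 463, 469, 757 and 353, and neither was called in any of the 4 pairs. Of the relatives of Thbs1, Thbs2 had 74, 74, 356 and 141 reads and was called higher with tumor alone by 1.87 (1.52 to 2.27) but was not higher with exercise alone, at -0.34 (-0.83 to 0.14), where Thbs1 was called. Thbs3, with 24, 20, 56 and 20 reads, was called lower with exercise in tumor-bearing hearts by -1.14 (-1.99 to -0.42). Mmrn1, the multimerin that binds factor V, had 33, 61, 129 and 34 reads, with 1.56 (1.03 to 2.19) for tumor alone and -1.59 (-2.20 to -1.06) for exercise in tumor-bearing hearts, both called. Ggcx, the carboxylase that readies the vitamin K dependent factors, had 56, 72, 34 and 39 reads and was called lower with tumor alone by -1.08 (-1.76 to -0.46).

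**Figure D5:**
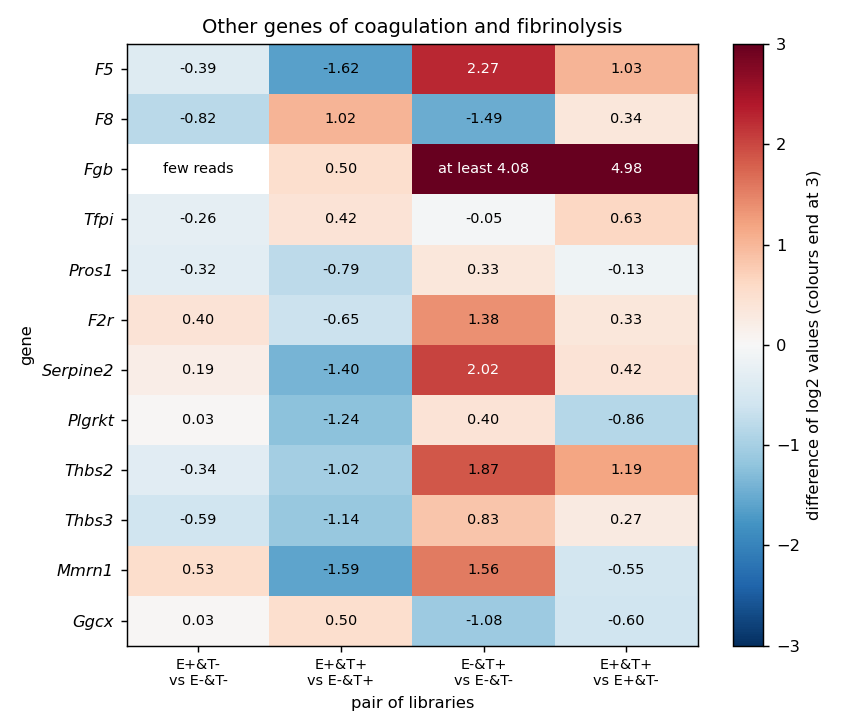
Difference of log2 values of 12 other genes of the pathway (rows) in the 4 pairs of libraries (columns), red for higher and blue for lower in the first library of the pair; the white cell had at most 3 reads in both libraries and "at least" marks a bound against 3 reads. F5, Serpine2, Thbs2 and Mmrn1 are red with tumor alone (2.27, 2.02, 1.87 and 1.56) and blue with exercise in tumor-bearing hearts (-1.62, -1.40, -1.02 and -1.59).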

How the data were processed

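Total RNA from heart was made into libraries with the QuantSeq 3′ mRNA-Seq kit, so that reads lie near the 3′ end and do not grow in number with transcript length. Per the labels, reads were aligned to mm10 with Bowtie2 and counted with bedtools, whose versions are not given in the sources used here. The deposited values are log2(normalized read count + 1) after the quantile normalization of edgeR by the authors, to 3 decimals. The 4 libraries of heart were used, and 0 p-values were computed, since each group has 1 library.

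Whole reads were recovered by fitting relative library sizes and a dispersion of 0.149, which gave back 100% of the deposited values within 0.001. On simulated reads for 23282 genes, 98.3% of read numbers were recovered exactly, and 100% of those under 1000. Depth ran from 6595419 to 11545862 reads. Intervals are 95% Clopper-Pearson for ratios and Poisson for levels, PCR copies are not independent molecules, and 3 reads is the floor for a count of 0.

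The 9 genes, the lists and the motifs were chosen with earlier results of these data known. Named are all 9 genes, the listed pathway genes called in any pair that averaged 16 or more normalized reads, Tfpi, F2r and Pros1, up to 3 markers of a list that moves with a gene, and the 2 nearest profiles. Klf2, and Csf1r and Jun as markers that did not follow their list, were named after their values were seen. So were C1qb, Timd4, Rgs5, Pdgfra, Lum, Postn and Tcf21. Some listed genes are not reported here. Alternatives changed the scaling, the minimum, the pseudocount, the rule for calls and the handling of repeated symbols. Gene positions are from GENCODE M21 (GRCm38). Computations ran in Python 3.11.15 with pandas 2.3.3, numpy 2.4.6 and scipy 1.17.1, and plots were drawn with matplotlib 3.10.9.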

Additional observations from a re-analysis of the deposited data

Results flagged for a closer look

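For 3 of the 9 genes the exercise effect had opposite directions in tumor-bearing and tumor-free hearts, each beyond counting error, and for all 3 the difference between the effects was not tested, since each group has 1 library. Procr was 2.70 higher with exercise without tumor and -0.73 with tumor on the log2 scale, a difference of -3.43, with 9 reads in E-&T-. F13a1 was 0.41 higher without and -0.46 with tumor, a difference of -0.86. Vwf was -0.51 without and 0.49 with tumor, a difference of 1.0, and under scaling to library totals the latter was -0.10, where the median of all genes was -0.54.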

How the results depend on the processing

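The number of the 9 genes called in E+&T- against E-&T- was 3, and in E-&T+ against E-&T- it was 4, under every alternative run. In E+&T+ against E-&T+ it was 1, against 4 with CPM and 5 with reads scaled to the geometric mean of the library totals, the latter chosen after seeing the data. In E+&T+ against E+&T- it was 2 (1 higher, 1 lower), against 4 (0 higher, 4 lower) with CPM and 6 (0 higher, 6 lower) at the geometric mean of the totals, and 1 with the reads of genes under 1% of every library, with a pseudocount of 4, with a minimum of 16 normalized reads or with a rule that the interval excludes no change. The total scalings also moved the median of all genes, by -0.54 and -0.68 with CPM and by -0.59 and -0.74 at the geometric mean in these pairs, and genes over 1% of the library held 41.0% of the reads of E+&T+. Of 88 differences of single genes, 88 moved by less than their counting error with a pseudocount of 4, 82 with genes under 1%, 59 with CPM and 54 at the geometric mean, and no called value turned its direction. Summing rows of a repeated symbol or dropping the minimum left the 4 counts as they were. No paired analysis was possible because each group has 1 library, and for the same reason no library could be left out. Depth limits F3, Plau, Plaur and Procr, which had between 5 and 12 reads in their lowest library.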
